A study of Mus musculus with 15 samples.

Results

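The 8 genes described here encode proteins that shorten the life of mRNAs. They are the ZFP36 family members Zfp36, Zfp36l1 and Zfp36l2, the Regnase family members Zc3h12a, Zc3h12c and Zc3h12d, and the Roquins Rc3h1 and Rc3h2. They were chosen by name, through the RefSeq accession of their probes, and with their levels in these arrays in view, so their values are given as a description and without a test. All 8 had a named probe and all 8 passed the filter on dim probes, among 14192 genes that passed it in all. ZFP36 proteins bind AU-rich elements in the 3' untranslated regions of mRNAs and recruit the CCR4-NOT deadenylase, which removes the poly(A) tail. Regnase-1, the product of Zc3h12a, cuts stem-loops in mRNAs, and Roquins bind such stem-loops and recruit deadenylation and decapping enzymes. In macrophages these proteins are known for limiting the amount and duration of cytokine mRNAs after exposure to lipopolysaccharide (LPS), a bacterial cell wall component.

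Total RNA came from mouse macrophages that had been differentiated from bone marrow with macrophage colony-stimulating factor, on the C57BL/6 background. Knockout (KO) cells were Junb-fl/fl Lyz2-Cre+/+, that is, with floxed alleles of Junb, an AP-1 transcription factor gene, and with Cre recombinase driven from both copies of the myeloid gene Lyz2, and wild type (WT) cells were C57BL/6, with no Cre named. KO cells gave 3 arrays after LPS at 100 ng/ml for 4 h and 4 untreated arrays, and WT cells gave 4 LPS arrays and 4 untreated arrays. The replicates were wells, and the number of mice is not given in the sources used here, so the spread and the p-values cover only the difference between wells, which may be technical.

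All KO arrays lay on slide 1 and all WT arrays on slide 2, so genotype and slide cannot be told apart where KO and WT cells are compared, while each LPS comparison lies within 1 slide. Cre, the level of Lyz2 and sex-linked genes also differed with genotype: Xist was at background on all KO arrays and Ddx3y on all WT arrays. Junb was at background on all 7 KO arrays and had signals of 1291 to 9574 on the 8 WT arrays. The macrophage markers Csf1r, Adgre1, Itgam, Fcgr1, Mertk and Cd14 were well above background on every array. Over the arrays, 51.0% to 63.2% of the spots were well above background. Untreated KO replicate 3 stood apart, with 2115 spots marked as outliers by the scanner software and a Csf1r signal of 3415, against 221748 or more on the other arrays. A level below is the log2 of the background-subtracted signal over the 75th percentile of its array. Levels of different genes come from different probes and are not compared.

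Zfp36l1 and Zc3h12d lost most of their signal in KO cells given LPS and did not do so in WT cells given LPS. Zfp36l1 encodes a paralog of the AU-rich element binding protein ZFP36. Its level was 1.51, 1.75 and 1.75 in LPS-treated KO cells and 5.35, 5.23, 5.34 and 4.95 in untreated KO cells. It was 4.73, 4.63, 4.70 and 4.37 in LPS-treated WT cells and 3.77, 4.21, 4.28 and 4.00 in untreated WT cells. No group overlapped another: untreated KO cells were highest, then WT cells with LPS, then untreated WT cells, and KO cells with LPS were lowest. The signal itself was 1642 to 2410 on the LPS-treated KO arrays and 12700 or more on the untreated WT arrays, far above background throughout. In KO cells Zfp36l1 fell by 3.55 ± 0.15 (SE) on the log2 scale after LPS, 11.7-fold. In WT cells the change was 0.54 ± 0.14, which passed the threshold of the fit over all genes, but it was -0.06 with quantile normalisation and -0.28 with normexp background correction and quantile normalisation and passed in neither, so the direction in WT cells depends on the scaling. The difference of the LPS responses, KO minus WT, was -4.09 ± 0.20, rank 4 from the lowest of the 14192 genes. It lay between -4.21 and -3.61 over the 22 alternatives that gave a value. Against WT cells, KO cells had 2.22-fold more Zfp36l1 signal untreated (1.15 ± 0.14) and 7.65-fold less with LPS (-2.94 ± 0.15). In RNA of whole cultures, fewer expressing cells and less RNA per cell cannot be told apart.

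Zc3h12d encodes Regnase-4. Its level was -2.95, -3.00 and -2.82 in LPS-treated KO cells and 0.69, 0.69, 0.44 and 0.65 in untreated KO cells. In WT cells the level was 0.22, 0.60, 0.28 and 0.20 with LPS and 1.10, 0.70, 0.69 and 0.85 untreated. KO cells with LPS stood far below the other 3 groups, which lay close together: untreated KO cells overlapped both WT groups, and the WT groups did not overlap each other. The signal of 60.7 to 102 on the LPS-treated KO arrays was still well above background on all 3. LPS lowered Zc3h12d 11.7-fold in KO cells (-3.54 ± 0.13) and 1.42-fold in WT cells (-0.51 ± 0.12). Between the genotypes the responses differed by -3.03 ± 0.18, rank 13 from the lowest, and lay between -3.25 and -2.36 over 23 alternatives. With LPS, KO cells had 9.52-fold less Zc3h12d signal than WT cells (-3.25 ± 0.13), and untreated the difference was -0.22 ± 0.12, which did not pass the threshold.

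The summed level of the neutrophil markers also differed between the groups, and S100a8 was the brightest of these markers in each group. Their summed level, over the 6 of 7 markers with a probe, was 18.3 to 20.8 times the 75th percentile in LPS-treated KO cells and 48.4 to 64.9 in LPS-treated WT cells, against 5.83 to 6.67 in untreated KO cells and 6.90 to 11.9 in untreated WT cells. In LPS-treated KO and WT cells the signal of S100a8 was 7718 to 9710 and 20125 to 49432. Camp had signals of 2052 to 3591 and 2593 to 8072 in KO and WT cells with LPS. Untreated, Camp had 391 to 963 and 1109 to 1389. Elane, Ltf and Mpo did not follow the sum. Elane had signals of 233 to 361 and 252 to 451 in KO and WT cells with LPS. Untreated, Elane had 289 to 769 and 412 to 541. Ltf had 37 to 169 over all arrays. Mpo was at background on all arrays and S100a9 on all KO arrays. On the WT arrays S100a9 had signals of 281 to 780 with LPS and 198 to 601 untreated. The summed level of the macrophage markers was 1230 to 1630 and 1070 to 1600 times the 75th percentile in KO and WT cells with LPS, and 457 to 1270 and 840 to 974 untreated. The part of these markers in the values of Zfp36l1 and Zc3h12d was not tested.

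**Figure D1:**
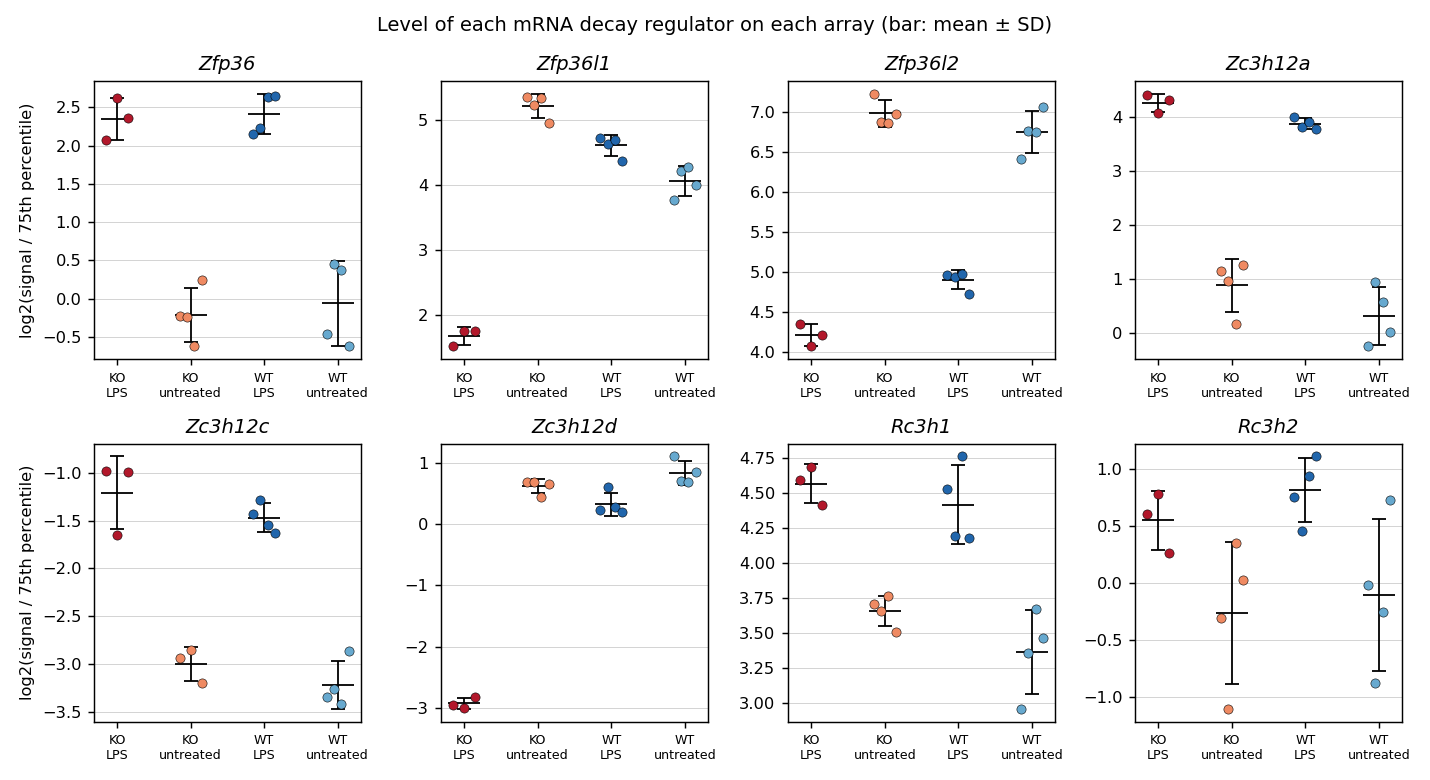
Each panel plots 1 gene: the vertical axis is the level, log2 of the signal over the 75th percentile of the array, each point is 1 array, and the horizontal bar with whiskers is the mean and SD of the group. The 3 LPS-treated KO arrays sit below all other arrays for Zfp36l1 (1.51 to 1.75), Zfp36l2 (4.07 to 4.35) and Zc3h12d (-3.00 to -2.82). Zc3h12c has 3 untreated KO points because the spot of replicate 3 was marked as an outlier.

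The sequence around the start of transcription was searched in 7 of the 8 genes (RefSeq, GRCm38.p6, windows of 300 bases that end shortly after the start). The motifs were TGANTCA (a pattern for the AP-1 site with any base at N) and TGACGTCA (the cyclic AMP response element). The kappa B site and a pair of interferon response sites were also searched, each motif on both strands. Shown are Zfp36l1 and Zc3h12d, because their LPS responses differed most between KO and WT cells, and Rc3h1, because it holds the only other match. They read in the direction of the gene, in lower case, with a match in capitals.
Zfp36l1, chr12:80112964-80113263, minus strand: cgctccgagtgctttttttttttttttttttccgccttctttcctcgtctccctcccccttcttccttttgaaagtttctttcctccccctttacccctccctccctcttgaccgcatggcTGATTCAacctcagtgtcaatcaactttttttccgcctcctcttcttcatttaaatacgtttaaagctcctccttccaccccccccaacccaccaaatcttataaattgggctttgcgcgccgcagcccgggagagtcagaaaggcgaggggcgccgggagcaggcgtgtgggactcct
Zc3h12d, chr10:7832220-7832519, plus strand: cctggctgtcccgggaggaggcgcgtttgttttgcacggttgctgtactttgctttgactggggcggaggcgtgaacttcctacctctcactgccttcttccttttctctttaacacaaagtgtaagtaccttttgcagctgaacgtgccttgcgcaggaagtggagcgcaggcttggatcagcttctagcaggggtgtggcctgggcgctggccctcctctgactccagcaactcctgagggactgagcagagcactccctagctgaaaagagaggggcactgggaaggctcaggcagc
Rc3h1, chr1:160906161-160906460, plus strand: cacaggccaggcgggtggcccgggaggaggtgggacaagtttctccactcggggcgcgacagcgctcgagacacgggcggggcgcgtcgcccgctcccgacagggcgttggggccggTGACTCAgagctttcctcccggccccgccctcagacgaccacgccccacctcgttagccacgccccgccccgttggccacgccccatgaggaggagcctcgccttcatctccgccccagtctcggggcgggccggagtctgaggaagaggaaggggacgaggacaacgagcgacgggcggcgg
Zfp36l1 has TGATTCA at position -129 from the start and Rc3h1 has TGACTCA at position -133. Jun-family dimers are known to bind TGACTCA and its reverse complement TGAGTCA. The Zfp36l1 match, TGATTCA, fits only the wider pattern. Zc3h12d has no match to any of the 4 motifs in this window, and nor do Zfp36, Zc3h12a, Zc3h12c and Rc3h2. Of all 32851 promoters, 7.81% hold TGANTCA, 1.79% the cyclic AMP response element, 1.63% the kappa B motif and 3.44% the interferon motif. A match describes the letters only.

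Zfp36l2, another ZFP36 paralog, fell after LPS in both genotypes and further in KO cells. Its level was 4.35, 4.07 and 4.21 in LPS-treated KO cells and 7.23, 6.88, 6.87 and 6.98 in untreated KO cells. It was 4.97, 4.94, 4.98 and 4.73 in LPS-treated WT cells and 6.42, 6.77, 6.76 and 7.06 in untreated WT cells. The untreated groups overlapped, and the LPS groups lay apart with KO below WT. The fall was 6.87-fold in KO cells (-2.78 ± 0.15) and 3.60-fold in WT cells (-1.85 ± 0.14). KO minus WT, the responses differed by -0.93 ± 0.20, a value that lay between -1.05 and -0.80 over 22 alternatives. With LPS, KO cells had 1.62-fold less Zfp36l2 signal than WT cells. The untreated WT signal was nearly constant, at 94500 to 107000, while the 75th percentile of these arrays differed. So the untreated WT level, and with it the size of the fall and of the difference between the genotypes, is uncertain. The untreated KO signal was 87100 to 176000, and it was highest on replicate 2, the array with the highest 75th percentile.

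Zfp36 itself, which encodes tristetraprolin, rose after LPS in both genotypes. Its level was 2.07, 2.62 and 2.36 in LPS-treated KO cells and -0.22, -0.24, -0.62 and 0.24 in untreated KO cells. WT cells had 2.15, 2.22, 2.64 and 2.65 with LPS and -0.46, 0.46, 0.38 and -0.62 untreated. KO and WT values overlapped in both conditions, and LPS and untreated values did not overlap in either genotype. The rise was 5.90-fold in KO cells (2.56 ± 0.28) and 5.56-fold in WT cells (2.48 ± 0.26). KO and WT responses differed by 0.09 ± 0.38, which did not pass the threshold in any of 23 alternatives, which gave -0.49 to 0.27.

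Among the Regnases, Zc3h12a and Zc3h12c rose after LPS in both genotypes, unlike Zc3h12d. Zc3h12a, which encodes the stem-loop endonuclease Regnase-1, had levels of 4.40, 4.08 and 4.31 in LPS-treated KO cells and 1.15, 0.98, 0.17 and 1.26 in untreated KO cells. WT cells had 4.00, 3.82, 3.91 and 3.77 with LPS and -0.24, 0.95, 0.57 and 0.02 untreated. With LPS the KO values all lay above the WT values, and untreated they overlapped. The rise was 10.4-fold in KO cells (3.38 ± 0.28) and 11.7-fold in WT cells (3.55 ± 0.26). In the deposited value table the WT rise of Zc3h12a was 1.74 and did not pass. The difference of the responses was -0.17 ± 0.38 (1.24 in the deposited value table, not passed). KO against WT was 0.39 ± 0.28 with LPS and 0.56 ± 0.26 untreated. Neither passed. With LPS, the deposited value table gave 1.81, which did not pass, and the 0.39 passed when only the groups compared were fitted. The untreated value was 0.80 and passed without untreated KO replicate 3, whose level of 0.17 was the lowest of its group.

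Zc3h12c, which encodes Regnase-3, was dim, with signals of 75.4 to 374 over all arrays. Its level was -1.65 to -0.98 in LPS-treated KO cells and -3.20 to -2.86 on the 3 untreated KO arrays with a value. In WT cells it was -1.63 to -1.28 with LPS and -3.42 to -2.86 untreated. KO and WT ranges overlapped in both conditions. The rise was 1.79 ± 0.20 in KO cells and 1.75 ± 0.17 in WT cells, and the difference of the responses was 0.03 ± 0.26.

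Of the Roquin genes, Rc3h1 rose in both genotypes. Rc3h1, which encodes Roquin-1, rose 1.88-fold in KO cells (0.91 ± 0.18) and 2.08-fold in WT cells (1.06 ± 0.16). Its level was 4.42 to 4.69 in LPS-treated KO cells and 3.51 to 3.76 in untreated KO cells, and 4.18 to 4.76 in LPS-treated WT cells and 2.95 to 3.67 in untreated WT cells. LPS and untreated ranges did not overlap in either genotype, and KO and WT ranges overlapped in both conditions. KO minus WT, the responses of Rc3h1 differed by -0.14 ± 0.24. Both rises were smaller with quantile normalisation (0.44 in KO and 0.54 in WT cells), with normexp added (0.44 and 0.47) and in the deposited value table (0.42, which did not pass, and 0.52). A second, dimmer probe gave 1.06 in KO cells, 1.55 in WT cells and -0.53 for KO against WT with LPS, where the probe used gave 0.15 ± 0.18. That -0.53 passed the threshold, so the probes disagree on this comparison.

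Rc3h2, which encodes Roquin-2, varied most between wells among the 8 genes in the untreated groups. Its level was 0.27 to 0.78 in LPS-treated KO cells and -1.10 to 0.35 in untreated KO cells, and 0.46 to 1.11 in LPS-treated WT cells and -0.87 to 0.73 in untreated WT cells. LPS and untreated values overlapped in both genotypes. The LPS response was 0.81 ± 0.36 in KO cells, which did not pass, and 0.92 ± 0.33 in WT cells, which passed. The KO value was 0.53 without untreated KO replicate 2 and did not pass, was 1.01 and passed without untreated KO replicate 3, and the call in KO cells was also gained without untreated WT replicate 2 or 4. The WT call was lost without untreated WT replicate 2 (0.66) or 3 (0.87), and without LPS-treated WT replicate 3 (0.88) or 4 (0.82). It was also lost with normexp and quantile normalisation (0.70), in the deposited value table (0.84) and with no filter on dim probes (0.92). Between KO and WT cells the response differed by -0.11 ± 0.49.

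**Figure D2:**
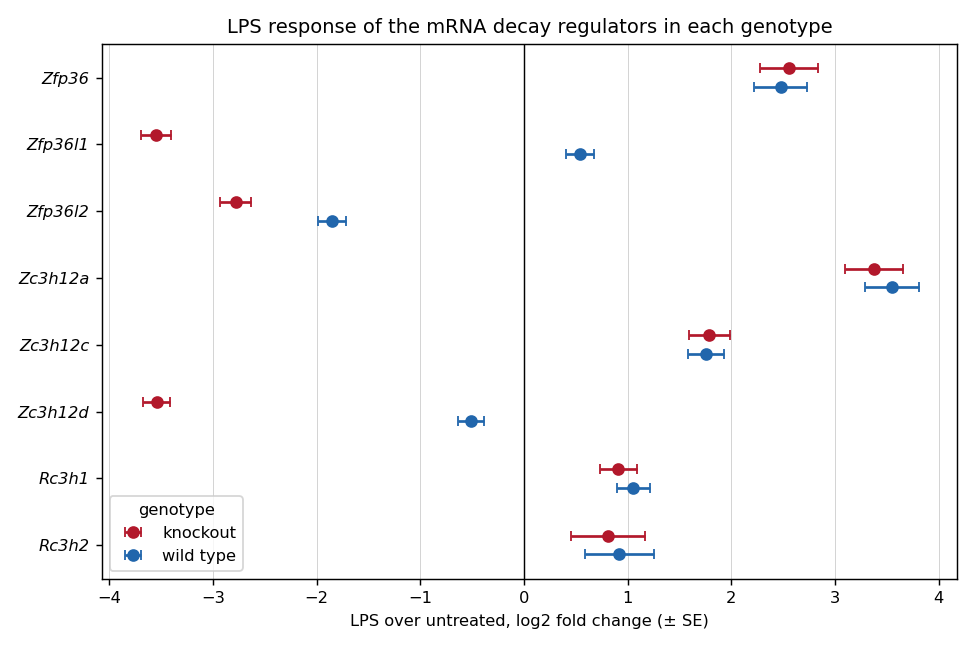
The horizontal axis is the log2 fold change, LPS over untreated, and each row is 1 gene with the KO estimate above the WT estimate, as a point with its standard error. For Zfp36, Zc3h12a, Zc3h12c, Rc3h1 and Rc3h2 the KO and WT estimates lie within 0.17 of each other, while Zfp36l1 (-3.55 in KO cells and 0.54 in WT cells, where the sign turned under quantile normalisation), Zc3h12d (-3.54 and -0.51) and Zfp36l2 (-2.78 and -1.85) lie lower in KO cells.

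Counted over the 8 genes, LPS raised 4 (Zfp36, Zc3h12a, Zc3h12c and Rc3h1) and lowered 3 (Zfp36l1, Zfp36l2 and Zc3h12d) in KO cells, at an adjusted p under 0.05 in the fit over all genes. Of all genes 59.9% passed in KO cells, 32.5% higher and 27.5% lower. In WT cells 6 were higher and 2 (Zfp36l2 and Zc3h12d) were lower, against 60.5% of all genes passed, 34.9% higher and 25.5% lower. LPS and untreated arrays did not overlap for 7 of the 8 genes in each genotype, against 65.5% of all genes in KO cells and 52.6% in WT cells. In the difference of the LPS responses 3 passed (Zfp36l1, Zfp36l2 and Zc3h12d, all lower in KO cells), against 10.1% of all genes. KO against WT passed for 1 untreated (Zfp36l1), against 17.7% of all genes, and for 3 with LPS (again Zfp36l1, Zfp36l2 and Zc3h12d), against 30.8%. Since the genes were chosen with these levels in view, nothing is read from the counts. The median LPS response of the 8 genes was 0.86 in KO cells and 0.99 in WT cells, beside 0.19 and 0.14 over all genes. Over all genes these medians moved to -0.07 and -0.10 with quantile normalisation, a shift of the whole scale that matters for small changes such as that of Zfp36l1 in WT cells. With it the share of higher genes among those that passed moved as well: it was 37.8% with quantile normalisation against 54.2% as reported in KO cells, and 43.4% against 57.8% in WT cells.

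**Figure D3:**
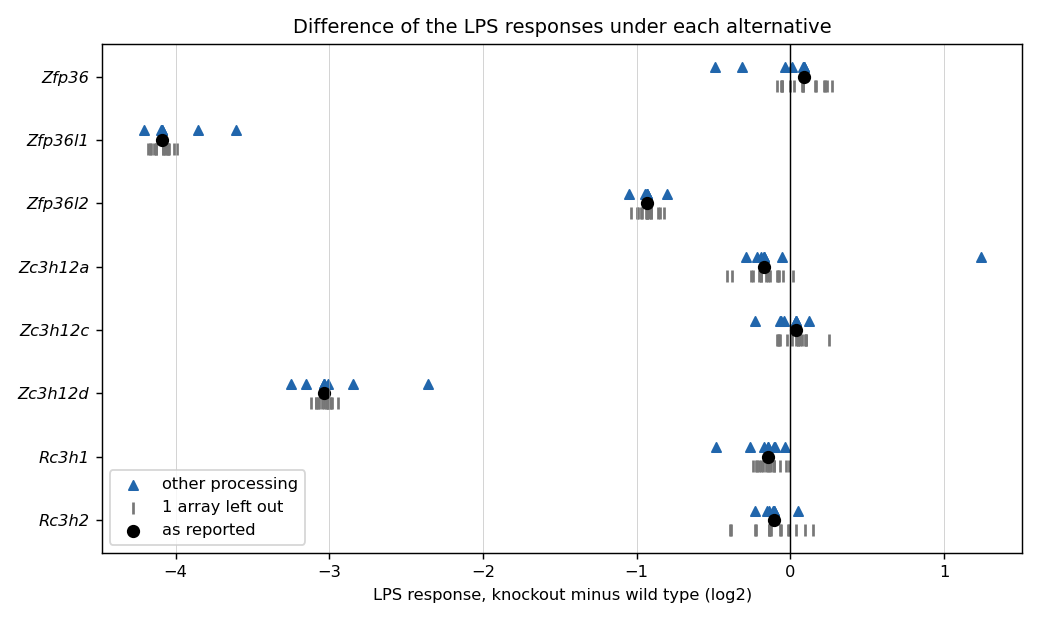
The horizontal axis is the difference of the LPS responses, KO minus WT, on the log2 scale. The black point is the value reported, triangles are other ways of processing and ticks leave out 1 array each. Zfp36l1 (-4.21 to -3.61), Zc3h12d (-3.25 to -2.36) and Zfp36l2 (-1.05 to -0.80) stay below 0 throughout, and Zc3h12a has 1 value at 1.24, from the deposited value table.

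The genes whose levels followed those of each member most closely over the arrays were found by the root mean square (RMS) difference of the log2 levels, after each gene's own mean was subtracted, for the 6 members whose group means spanned at least 2 on the log2 scale. Over 15 arrays, Irf8, a transcription factor gene of the myeloid lineage, came nearest to Zfp36l1 with an RMS difference of 0.53, followed by Mtus1 (0.59) and Zc3h12d (0.62). Irf8 averaged 2.66 in LPS-treated KO cells and 4.90 in untreated KO cells, and 5.07 in LPS-treated WT cells and 4.58 in untreated WT cells. Nearest to Zc3h12d were Tnfaip8l2 (0.60), Zfp36l1 (0.62) and Cep78 (0.64). The search covered only genes with a value on all 15 arrays. Among those, Zfp36l1 and Zc3h12d were each within the 3 nearest of the other. Zfp36l1 and Zc3h12d parted in WT cells, where the LPS response of Zfp36l1 was 0.54 (reversed under quantile normalisation) and that of Zc3h12d -0.51. Closer matches were found for Zfp36l2 (Arl4c 0.15, Spata7 0.17, Trmt10b 0.18) and, over 14 arrays, for Zc3h12c (Traf5 0.13, S100pbp 0.16, Pkn2 0.18). For Zfp36 they were Ms4a6d (0.26), Fam3b (0.31) and Igf2bp2 (0.32), and for Zc3h12a they were Zfp800 (0.32), Trim21 (0.34) and Exoc3l4 (0.35).

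**Figure D4:**
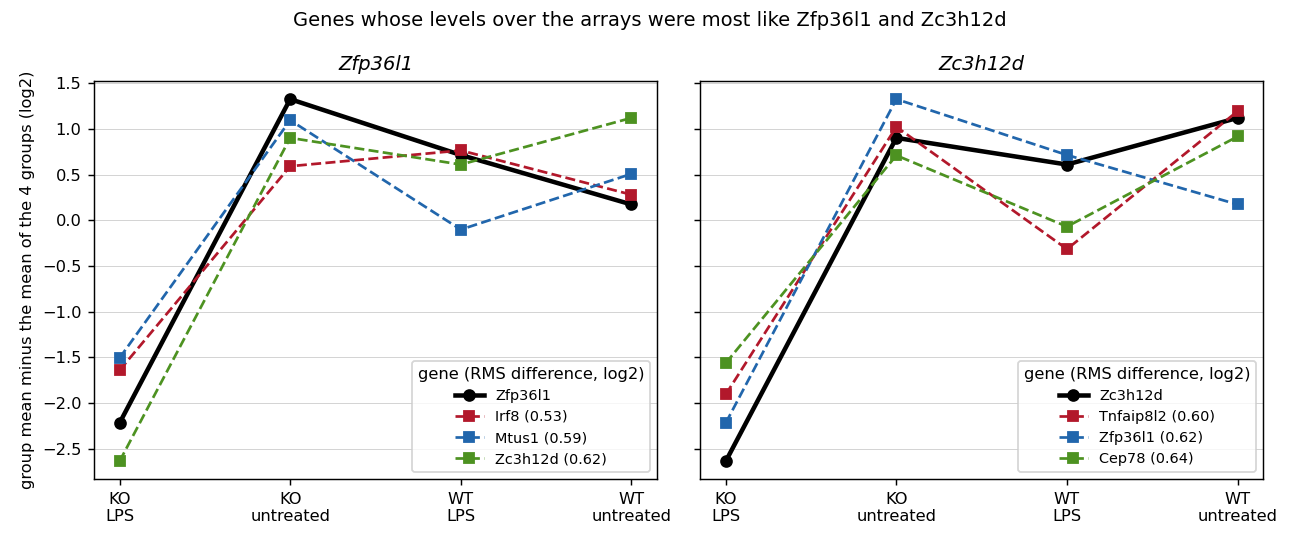
Group means on the log2 scale, each gene centred on the mean of its 4 groups, for Zfp36l1 (left, black) and Zc3h12d (right, black) with the 3 genes nearest to each (dashed, RMS difference in the legend). The lowest point of every line is KO cells with LPS; in WT cells the lines differ, with Irf8 and Zfp36l1 higher with LPS than untreated (for Zfp36l1 0.54, reversed under quantile normalisation) and the other genes lower.

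Of 39 measured genes of deadenylation, decapping and decay, 12 rose and 10 fell after LPS in KO cells, and 14 rose and 7 fell in WT cells, with median responses of 0.04 and 0.28. These shares were close to those over all genes, of which 32.5% were higher and 27.5% lower in KO cells and 34.9% higher and 25.5% lower in WT cells. Dcp2, which encodes the decapping enzyme, rose by 3.17 ± 0.30 in KO cells and 4.37 ± 0.28 in WT cells. The size in WT cells depends on the floor, since all untreated WT arrays lay at it (-4.52). Only 2 of these 4 were well above background. Untreated KO cells averaged -3.986, with 1 array at -2.80. Btg2, whose product recruits CCR4-NOT, rose by 1.72 ± 0.13 and 2.14 ± 0.12. The deadenylase gene Cnot7 rose by 1.31 ± 0.21 in KO cells and 1.585 ± 0.198 in WT cells. Exosc9, of the exosome, rose by 2.85 ± 0.65 in WT cells, but was -0.51 in the deposited value table. The exosome genes Exosc5 (-1.39 ± 0.14 in KO and -1.42 ± 0.13 in WT cells) and Exosc7 (-1.26 ± 0.23 and -1.46 ± 0.21) fell in both genotypes. The largest falls also included the deadenylase gene Parn in KO cells (-1.48 ± 0.16) and the exosome gene Exosc6 in WT cells (-1.51 ± 0.17). Both also fell and passed in the other genotype, Parn by -0.969 ± 0.147 in WT cells and Exosc6 by -0.787 ± 0.185 in KO cells. The difference of the responses did not pass for Cnot7, Parn or Exosc6.

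For the difference of the LPS responses 3 of these 39 genes passed, all lower in KO cells, close to the 10.1% of all genes that passed, with a list median of -0.21 beside -0.06 over all genes. They were Xrn1, which encodes the main cytoplasmic 5' exonuclease (-1.11 ± 0.27, limma adjusted p = 0.0227), Cnot11 of the CCR4-NOT complex (-0.82 ± 0.21, adjusted p = 0.0256) and the decapping activator gene Dcp1a (-0.72 ± 0.16, adjusted p = 0.0101). Another probe of Cnot11 gave 0.085. This list and those below were chosen with earlier results of these data known, and their adjusted p-values do not allow for that. The call of Xrn1 was lost without untreated KO replicate 1 (-1.08) or 2 (-0.96) or LPS-treated KO replicate 3 (-0.91), that of Cnot11 without any of 7 of the 15 arrays, and that of Dcp1a with normexp and quantile normalisation (-0.47). In the deposited value table no gene of this list passed for the difference, and with the replicate block fewer than 3 did.

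Of 11 measured genes for other RNA-binding regulators of cytokine mRNAs, 8 rose and 1 fell in KO cells, and 8 rose and 2 fell in WT cells. The median response was 0.98 in KO cells and 1.28 in WT cells. Over all genes, 32.5% were higher and 27.5% lower in KO cells, and 34.9% and 25.5% in WT cells. Arid5a, whose product is known to stabilise Il6 mRNA against Regnase-1, rose by 4.37 ± 0.13 in KO cells and 5.71 ± 0.12 in WT cells. Its response was lower in KO cells by -1.34 ± 0.17 (limma adjusted p = 0.000242), the only one of the 11 genes for which the difference passed, against 10.1% of all genes, with a list median of -0.30. Zc3hav1, which encodes the antiviral zinc finger protein ZAP, rose by 2.57 ± 0.18 in KO cells and 2.99 ± 0.16 in WT cells. Celf1, whose product binds GU-rich elements, rose by 2.18 ± 0.17 and 2.07 ± 0.15. Tia1, a translational silencer of Tnf mRNA, fell by 1.38 ± 0.20 and 0.82 ± 0.19, and its relative Tial1 fell by 0.34 ± 0.12 in WT cells, a call that was lost without untreated WT replicate 4 (-0.28) or LPS-treated WT replicate 3 (-0.31) or 4 (-0.28). Another probe gave -2.66 in KO and -2.09 in WT cells for Tia1, and another gave -1.13 and -1.15 for Tial1, so the sizes of these falls depend on the probe.

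Of 19 measured genes for kinases, phosphatases, 14-3-3 proteins and proteases that act on these regulators, 12 rose and 5 fell in KO cells and 13 rose and 4 fell in WT cells, with medians of 0.85 and 0.84, against 59.9% and 60.5% of all genes that passed in either direction. Malt1, which encodes a protease known to cleave Regnase-1 and Roquins in T cells, rose by 4.95 ± 0.16 in KO cells and 4.07 ± 0.15 in WT cells. Dusp1, a phosphatase that switches off p38 kinase, rose by 2.68 ± 0.16 and 3.43 ± 0.14, and Mapkapk2, the kinase that phosphorylates ZFP36, rose by 1.77 ± 0.16 and 2.17 ± 0.15. Irak1 fell by 0.77 ± 0.13 and 0.91 ± 0.12. The p38 gene Mapk14 fell by 1.05 ± 0.16 and 0.92 ± 0.15, but was 0.40 in KO cells in the deposited value table, and another probe gave -1.62 in KO cells, -0.47 in WT cells, which did not pass, and -1.14 for the difference of the responses, where the probe used gave -0.13 and neither passed. Btrc, whose product takes part in the degradation of Regnase-1, fell by 1.83 ± 0.26 and 1.83 ± 0.24 while another probe gave 0.44 and 0.13. In the difference of the responses 3 passed, against 10.1% of all genes, with a list median of -0.24: Malt1 was higher in KO cells (0.88 ± 0.22, limma adjusted p = 0.0225), and Dusp1 (-0.75 ± 0.21, adjusted p = 0.0427) and the p38 activator gene Map2k6 (-0.88 ± 0.26, adjusted p = 0.0491) were lower. Leaving out 1 array ended the call of Malt1 only for LPS-treated KO replicate 3 (0.82), but that of Dusp1 for 11 and that of Map2k6 for 11 of the 15 arrays.

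Of 23 measured mRNAs known as targets of the ZFP36 family, 18 rose and 3 fell after LPS in KO cells and 19 rose and 1 fell in WT cells, with medians of 3.69 and 4.204. Of all genes, 32.5% were higher and 27.5% lower in KO cells, and 34.9% and 25.5% in WT cells. The largest rises were those of Il1a (11.54 ± 0.33 in KO and 11.93 ± 0.29 in WT cells), Il6 (11.23 ± 0.39 and 11.55 ± 0.36) and Csf2 (10.76 ± 0.18 and 11.25 ± 0.17), whose sizes are uncertain because untreated Il1a and Csf2 lay partly at background and LPS-treated Il6 lay at the bright end of the arrays. Fos fell by 1.28 ± 0.14 in KO cells and 0.91 ± 0.13 in WT cells, and Ccnd1 (-1.31 ± 0.17) and Bcl2 (-0.49 ± 0.15) fell in KO cells, the last not without LPS-treated KO replicate 3 (-0.37). Of the 23, 5 passed for the difference of the responses, 4 lower and 1 higher in KO cells, with a list median of -0.32. Over all genes 10.1% passed, and 28.9% of those were higher in KO cells.

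Il10, the gene of an anti-inflammatory cytokine, had the largest of these differences (-4.10 ± 0.18, limma adjusted p = 3.9e-08). Its level was 3.02 to 3.15 in LPS-treated KO cells and -0.79 to -0.47 in untreated KO cells, against 5.34 to 5.88 in LPS-treated WT cells and -2.44 to -2.09 in untreated WT cells. So Il10 was lower in KO cells with LPS and higher in KO cells untreated, with no overlap in either condition, as was Zfp36l1. Il23a, a subunit of interleukin 23, differed by -2.51 ± 0.23 (adjusted p = 1.3e-05). Without LPS its values lay at the floor in KO and WT cells, and it averaged -1.30 ± 0.45 in KO and 1.22 ± 0.20 in WT cells with LPS (SD, n = 3 and 4), so this difference rests on the LPS levels alone, and it was -1.63 and did not pass without the floor. Ccnd1, which encodes cyclin D1, differed by -1.56 ± 0.23 (adjusted p = 0.000671), and Dusp1, also named above, was the fourth. The level of Ccnd1 averaged 1.445 in KO and 1.414 in WT cells with LPS, and 2.753 in KO and 1.157 in WT cells untreated. So this difference lay in the untreated cells, where genotype and slide cannot be told apart. In the deposited value table Ccnd1 differed by -0.41 and did not pass.

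Tnf, the best known target of ZFP36, differed the other way (0.78 ± 0.23, limma adjusted p = 0.0480). Its level averaged 6.87 ± 0.18 in KO and 7.38 ± 0.18 in WT cells with LPS, and 1.87 ± 0.32 in KO and 3.16 ± 0.15 in WT cells untreated (SD). Its level was thus lower in KO cells in both conditions, and by more untreated than with LPS. The call of Tnf was lost without any of 11 of the 15 arrays, with values of 0.69 to 0.88, and also in the deposited value table (0.85), with no filter on dim probes (0.78), without the floor (0.78) and with median centring (0.67).

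Of 14 measured mRNAs known as targets of Regnases or Roquins, of which Tnf, Il6, Ptgs2 and Ier3 are also on the list above, 9 rose and 1 fell in KO cells and 10 rose and 1 fell in WT cells. The medians were 2.30 and 2.06. Over all genes, 59.9% passed in KO and 60.5% in WT cells. Ptgs2, which encodes a prostaglandin synthase, rose by 8.60 ± 0.25 in KO and 8.86 ± 0.23 in WT cells, and Lcn2, which encodes lipocalin 2, by 5.76 ± 0.16 and 6.31 ± 0.15. The transferrin receptor gene Tfrc fell by 1.08 ± 0.15 and 0.47 ± 0.14, but other probes gave 0.12 and 0.59 in WT cells. For the difference of the responses those probes gave -1.20 and -1.23, and the probe used gave -0.61. Only Tnf passed for the difference of the responses, against 10.1% of all genes, a call lost under the settings named above. The list median was -0.29.

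**Figure D5:**
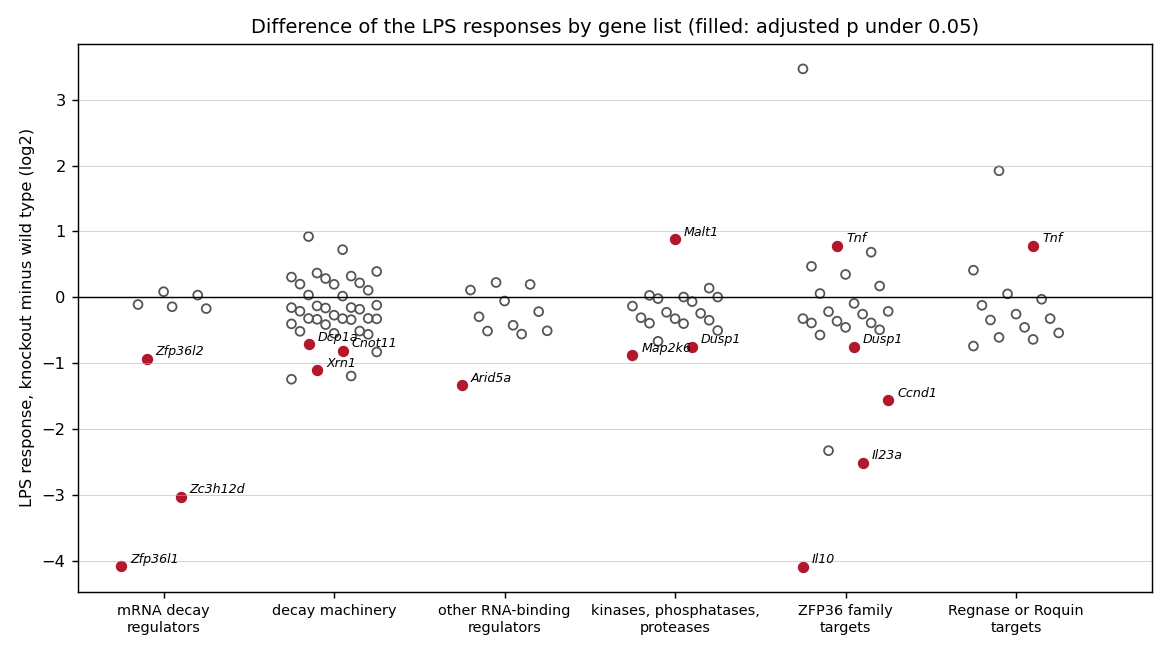
The vertical axis is the difference of the LPS responses, KO minus WT, on the log2 scale. Each point is 1 gene of the list named below it, and filled points passed an adjusted p of 0.05. Zfp36l1 (-4.09), Zc3h12d (-3.03) and Il10 (-4.10) lie lowest among the filled points, and 5 of the 8 mRNA decay regulators lie near 0.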

How the data were processed

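Arrays were of 1 colour (Cy3). The deposited scanner files hold intensities, and the processed signal is background-subtracted, per the file headers (Agilent Feature Extraction 10.7.3.1, probe design build mm9). The deposited value table holds log2 values; its normalisation is not stated, its column medians were 6.25 to 6.27, and it lacks the probes of Zfp36l1 and Zfp36l2. Here control spots were left out, 4827 spots marked as outliers were set missing, and no spot was saturated. Each array was scaled by its 75th percentile of that signal (482 to 1490), and values were raised to a floor of 0.0436 of it (-4.52 on the log2 scale) and put on the log2 scale. Of 55681 probes, 26582 had 1 symbol through their RefSeq accession (GRCm38.p6). Probes had to rise well above background on 3 or more arrays of a group, and the brightest stands for its gene.

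limma 3.58.1 in R 4.3.3 fitted 4 group means to all 15 arrays (lmFit, eBayes), with Benjamini-Hochberg adjustment over 14192 genes and a threshold of 0.05. It gave the LPS responses of both genotypes, their difference, and knockout against wild type untreated and with LPS. Tables were made with Python 3.11.15. The fit was tested on simulated data. The members and lists were chosen with earlier results of these data known. By the rule for named genes, all members, up to 3 list genes that passed in each direction per LPS contrast, and the 3 genes nearest to a member are named. Il10, Tnf and Ccnd1 levels were added after their values were seen. Zc3h12b, Ccne2, Il2 and Ctla4 did not pass the filter, and Il12b had no matched probe. Alternatives were quantile normalisation, normexp with offset 50, the value table, no filter, no floor, median centring, the next probe, only the groups compared, a replicate block, and each array left out.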

Additional observations from a re-analysis of the deposited data

Results flagged for a closer look

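Of all genes, 10.1% passed the test of the difference between the knockout and wild type LPS responses. Of the listed genes, 11 passed it. On the log2 scale, knockout minus wild type, these were Il10 (-4.10), Il23a (-2.51), Ccnd1 (-1.56), Arid5a (-1.34), Xrn1 (-1.11), Map2k6 (-0.88), Cnot11 (-0.82), Dusp1 (-0.75), Dcp1a (-0.72), Tnf (0.78) and Malt1 (0.88). When 1 array was left out, the calls of Dusp1, Map2k6 and Tnf were each lost for 11 of the 15 arrays. Those of Cnot11, Xrn1 and Malt1 were lost for 7, 3 and 1. Another probe of Cnot11 gave 0.085. Il23a did not pass without the floor, nor Dcp1a with normexp and quantile normalisation, nor Ccnd1 in the value table. The lists were chosen with earlier results of these data known, which the test does not allow for. The values of the regulators Zfp36l1 (-4.09), Zc3h12d (-3.03) and Zfp36l2 (-0.93) are given as a description, without a test, since they were chosen with these values in view.

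In 9 of 125 groups of 4 arrays 1 array stood far from the other 3, where chance gives about 1 in 20. Among the regulators these were the lowest array of Zfp36l2 in LPS-treated wild type cells (4.73) and of Zc3h12d in untreated knockout cells (0.44). Among the listed genes they were the highest array of Dcp2 (-2.80) and the lowest of Exosc5 (3.41) in untreated knockout cells, the lowest of Exosc7 (0.58) and Irak1 (1.70) in LPS-treated wild type cells, and the highest of Csf2 (-3.64) and Lcn2 (-0.017) and the lowest of Fos (4.51) in untreated wild type cells. The other 3 arrays of Csf2 lay at the floor, which set its distance.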

How the results depend on the processing

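Counts of regulators passing the threshold were, in the deposited value table with 6 of the 8, 4 and 4 for the LPS responses in knockout and wild type cells, 1 for their difference, 0 for knockout against wild type untreated and 1 with LPS; untreated the count was 2 with quantile normalisation and 2 with normexp, and 1 to 2 when 1 array was left out. The difference of the LPS responses passed for 0 decay machinery genes in the value table, 1 with the replicate block and 7 without the 3 arrays of widest spread (an alternative chosen after seeing the data), and 1 to 4 when 1 array was left out. It passed for 0 of 9 other RNA-binding regulators in the value table, where Arid5a is not among the 9 (1 to 2 when 1 array was left out), and for 0 kinases and related genes there, 1 without the floor, 1 with median centring, 1 with the replicate block and 0 to 3 when 1 array was left out. Of 14 kinases and related genes in the value table, 9 passed in knockout and 8 in wild type cells. For ZFP36 targets it passed for 10 with normexp, 2 in the value table, 3 with no filter, 2 without the floor, 3 with median centring and 3 to 6 when 1 array was left out. For Regnase or Roquin targets it passed for 0 in the value table, with no filter, without the floor and with median centring, 2 with the next probe, 2 without the 3 arrays and 0 to 2 when 1 array was left out. Directions that reversed were Zfp36l1 in wild type cells (-0.055 with quantile normalisation, -0.28 with normexp), Btrc (0.44 in knockout and 0.13 in wild type cells), Tfrc in wild type cells (0.12) and the difference for Cnot11 (0.085) with the next probe, and Mapk14 in knockout cells (0.40) and Exosc9 in wild type cells (-0.51) in the value table. The causes were not tested. Deviations of same-numbered wells had correlations of -0.53 to 0.56 over 21 pairs, and 4 of 15 arrays correlated best with their own number. These values cannot show that same-numbered wells were unpaired, and the fit reported did not pair them. With the replicate block 8 regulators passed in knockout cells, Rc3h2 with 0.81. Over all alternatives, 2333 further values of single genes kept their call or stayed within the spread of their group, 79 lost their call in the same direction and 43 of the regulators moved by more than 1 SD. The 2333 include values that a setting could not change, such as a knockout response when a wild type array was left out.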
